A study of Homo sapiens with 4 samples.

Results

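MEIS binding in human neural stem cells (hNSC) was examined at 10 genes that set the pace of the cell cycle: the D-type cyclins CCND1, CCND2 and CCND3, their kinase CDK6, the cyclin-dependent kinase inhibitors CDKN1A, CDKN1B, CDKN1C and CDKN2A, and the transcription factors MYC and MYCN. They were chosen by name and make up 10 of the 20098 protein-coding genes in GENCODE 44 on GRCh37. A binding event was assigned to a gene when its summit lay in the gene body extended by 250 kb on each side. This rule gave 18 of the 5169 reproducible sites, 131 of the 36796 peaks of replicate 1 and 150 of the 47449 peaks of replicate 2.

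The hNSC were a commercial line (Gibco) grown without serum and without any treatment, so there was a single kind of cell and no treated group. Chromatin immunoprecipitation with sequencing (ChIP-seq) was performed on 2 MEIS ChIP samples, and 2 Input samples of sheared chromatin served as background and entered the values only through peak calling. Per the labels, each ChIP used a mixture of the antibodies anti-MEISa (K830) and anti-MEIS1 (K844), 1.5 µg each, so that a peak does not say which MEIS protein was bound. The methods of the study speak of a pair of cell batches handled side by side, but neither they nor the labels tie a batch to a replicate. The depth of each library and the wash protocol of each replicate are unknown. Peak lists hold no expression, so neither the labelled cell type nor the activity of any gene could be checked from them. The study also measured expression by RNA sequencing in hNSC with MEIS1 or MEIS2 knocked out or overexpressed, and those data were not used here. Peaks of each replicate were called at a loose p-value of 0.01, and a reproducible site is a row of the list kept by the irreproducible discovery rate (IDR), which ranks the peaks of both replicates and retains those whose ranks hold up. Strength is given as −log10 p against input and as fold enrichment over input at the summit.

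D-type cyclins pair with CDK4 or CDK6 and phosphorylate the retinoblastoma protein, which releases E2F factors and lets a cell pass from G1 into S phase. The Cip/Kip inhibitors (CDKN1A, CDKN1B, CDKN1C) and the INK4 inhibitors (CDKN2A among them) hold these kinases back, and MYC proteins promote growth and proliferation. In the developing brain, CCND2 and CDK6 are known for the expansion of neural progenitors, CDKN1B and CDKN1C for cell cycle exit, and MYCN for progenitor growth. MEIS1 and MEIS2 are TALE homeodomain factors that bind TGACAG, often together with PBX factors at the joined sequence TGAGTGACAG or TGATTGACAG.

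The sequences below show what lay at the summits, read from GRCh37 in the 5′ to 3′ direction of the stated strand. The first 9 are 60 bases around the TGACAG (in capitals) nearest the summit, for the sites at these genes (MYC left out) where TGACAG was centred within 50 bp of the summit.
CCND1, upstream, chr11:69312100-69312159, minus strand: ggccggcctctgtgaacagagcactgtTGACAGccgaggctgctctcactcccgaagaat
CCND2, exon 3, chr12:4387945-4388004, minus strand: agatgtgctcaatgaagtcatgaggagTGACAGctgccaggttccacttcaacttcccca
CDK6, intron 4, chr7:92324760-92324819, plus strand: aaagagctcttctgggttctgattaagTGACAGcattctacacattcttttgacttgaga
CDK6, upstream, chr7:92676057-92676116, minus strand: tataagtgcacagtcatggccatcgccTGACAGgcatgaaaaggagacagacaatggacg
CDKN1B, nearer downstream site, chr12:12938468-12938527, plus strand: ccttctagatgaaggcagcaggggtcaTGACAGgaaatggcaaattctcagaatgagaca
CDKN1B, farther downstream site, chr12:13027493-13027552, plus strand: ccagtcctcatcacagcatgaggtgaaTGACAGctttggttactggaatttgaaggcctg
CDKN1C, downstream, chr11:2880817-2880876, minus strand: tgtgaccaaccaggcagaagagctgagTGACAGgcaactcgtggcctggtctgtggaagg
MYCN, nearer downstream site, chr2:16098667-16098726, minus strand: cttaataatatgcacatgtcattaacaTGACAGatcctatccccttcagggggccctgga
MYCN, farther downstream site, chr2:16126272-16126331, plus strand: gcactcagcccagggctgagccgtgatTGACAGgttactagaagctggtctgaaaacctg

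The CDKN1C sequence and the last MYCN sequence held a full joined PBX and MEIS sequence, with tgag and tgat directly before the capitals. A pair of strong sites had no TGACAG within 50 bp of the summit, and 55 bases centred on the summit (the base in capitals) are shown for them, a choice made after their strength was known.
CCND1, strongest site, chr11:69278418-69278472, plus strand: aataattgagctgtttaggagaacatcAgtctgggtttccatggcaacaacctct
CDKN1B, strongest site, chr12:12808871-12808925, plus strand: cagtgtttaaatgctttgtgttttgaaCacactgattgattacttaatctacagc

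Reproducible MEIS sites lay within reach of 9 of the 10 genes, and CDKN2A was the exception. CDK6 had 4 sites, CCND2 and CDKN1B had 3 each, CCND1 and MYCN had 2 each, and CCND3, CDKN1A, CDKN1C and MYC had 1 each. Of all protein-coding genes, 47.7% had a site under the same rule. Among the 10 genes 5 had at least 2 sites, against 20.9% of protein-coding genes. The 10 genes were not drawn at random and no test was made of these counts.

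**Figure D1:**
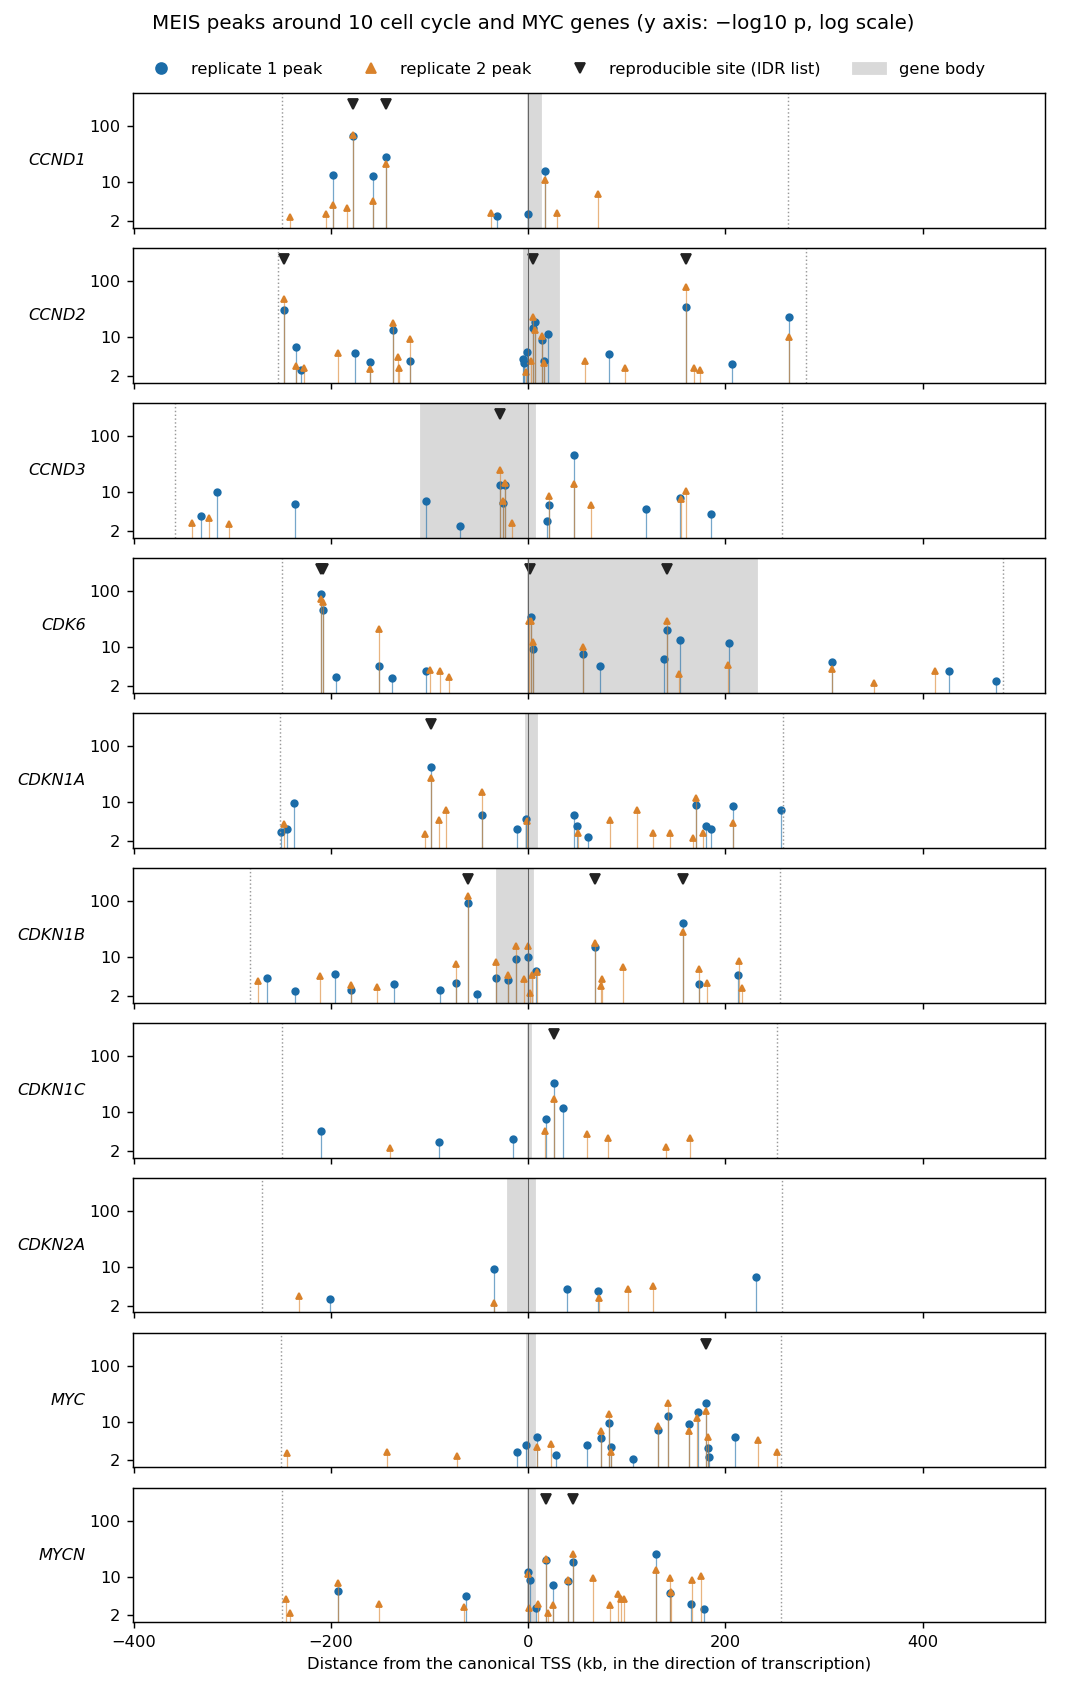
MEIS peaks around each of the 10 genes, with the distance of the summit from the canonical transcription start site in kb on the x axis (direction of transcription to the right) and −log10 p on a logarithmic y axis. Circles are replicate 1 peaks, triangles replicate 2 peaks, black arrowheads the 18 reproducible sites, grey bands the gene bodies and dotted lines the ends of the extended windows. Most arrowheads stand away from the start site, and the CDKN2A panel has none.

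The D-type cyclins and CDK6 together held 10 of the 18 sites. CCND1, the cyclin that couples growth factor signals to the cell cycle, spans chr11:69455924-69469242 on the plus strand (ENSG00000110092), and both of its sites lay far upstream. The stronger, at chr11:69278003-69279022, was 177 kb upstream of the canonical transcription start site (TSS), with a −log10 p of 67.9 (replicate 1) and 69.9 (replicate 2) and folds over input of 10.8 and 18.4. The other, at chr11:69311533-69312521, was 144 kb upstream and had a −log10 p of 28.2 and 20.6. Neither lay inside the canonical transcript of any gene, and for both sites the nearest canonical TSS of a protein-coding gene was that of CCND1.

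At CCND1 the replicates gave the stronger site nearly the same −log10 p, and the sites did not overlap each other in strength. TGACAG was absent from the 500 bp around the summit of the stronger site and lay 20 bp from the summit of the weaker. The gene body held no peak of either replicate. A replicate 1 peak 590 bp upstream of the TSS had a −log10 p of only 2.62 and a −log10 q of 0.392, and replicate 2 had none within 1 kb.

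CCND2, the D-type cyclin typical of neural progenitors, spans chr12:4378937-4414519 on the plus strand (ENSG00000118971) and held 3 sites. The site at chr12:4542440-4543451, 160 kb downstream of the canonical TSS, had a −log10 p of 33.9 (replicate 1) and 78.4 (replicate 2), and its nearest canonical TSS was that of FGF6 at 12 kb. The site at chr12:4134224-4136294, 248 kb upstream and just inside the limit of 250 kb from the gene body, had 30.2 and 47.2, and its nearest canonical TSS was that of PARP11 at 152 kb. The third, at chr12:4387672-4388315, lay 5.05 kb downstream of the canonical TSS in coding exon 3 of CCND2, with 14.3 and 23.1.

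All 3 CCND2 sites were stronger in replicate 2, and the exon 3 site was the weakest in both replicates. Its summit was 14 bp from the start of a shorter CCND2 transcript, and 2 copies of TGACAG lay in its window, the nearer 6 bp from the summit. An uncharacterised coding gene record also spans this exon. A further peak of both replicates lay in intron 3 at chr12:4389485-4390205, with a −log10 p of 18.6 (replicate 1) and 13.4 (replicate 2), and was not in the reproducible list.

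CCND3, the D-type cyclin best known from lymphoid cells, spans chr6:41902672-42018095 on the minus strand (ENSG00000112576) and held the weakest of the 18 sites by its listed −log10 p, which is in general the lower replicate value. This site, at chr6:41937772-41938522, had a −log10 p of 13.2 (replicate 1) and 24.7 (replicate 2). It lay 28.7 kb upstream of the canonical TSS, in the part of the gene body that other CCND3 transcripts cover. The strongest replicate 1 peak in the CCND3 window belonged to another gene's start: it lay 24 bp from the canonical TSS of USP49, at chr6:41862184-41863601, and had a −log10 p of 46.2 (replicate 1) and 13.7 (replicate 2), with no place in the reproducible list. The window was also the most crowded, with 17 protein-coding genes.

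CDK6, the kinase partner of the D-type cyclins, spans chr7:92234235-92465887 on the minus strand (ENSG00000105810) and had the most sites of the 10 genes. The strongest, at chr7:92675410-92676542, was 210 kb upstream of the TSS, with a −log10 p of 88.4 (replicate 1) and 72.7 (replicate 2) and folds over input of 10.4 and 16.4. A neighbour at chr7:92673226-92674394, 208 kb upstream, had a −log10 p of 45.8 and 64.0. The nearest canonical TSS to this pair was that of SAMD9, at 71.2 kb and 73.5 kb.

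The other sites were inside CDK6. In intron 1, at chr7:92462939-92465369 and 1.78 kb downstream of the TSS, the −log10 p was 33.8 (replicate 1) and 29.3 (replicate 2). In intron 4, at chr7:92324057-92326250 and 141 kb downstream, it was 19.8 and 28.9. The intron 1 site covered a pair of replicate 2 peaks, and the strongest summits of the replicates lay 1494 bp apart there, the widest gap among the 18 sites. They were 2531 bp (replicate 1) and 1037 bp (replicate 2) downstream of the TSS. The listed summit fell between them, and the 500 bp around it covered neither. TGACAG lay 3 bp from the summit of the strongest CDK6 site and 32 bp from that of the intron 4 site. It was absent from the 500 bp around the listed summits of the other CDK6 sites.

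A reproducible site inside the gene body was found for CCND2, CCND3 and CDK6, 3 of the 10 genes, against 8.36% of protein-coding genes. Longer genes hold sites more often, and among the 200 protein-coding genes closest in length, 4.5% had as many sites in the body as CCND2 or more, 15.5% as many as CCND3 and 9.5% as many as CDK6.

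CDKN1B, a Cip/Kip inhibitor that holds CDK2 in check, spans chr12:12838432-12875303 on the plus strand (ENSG00000111276) and had the strongest of the 18 sites. That site, at chr12:12807657-12809360, lay 61.4 kb upstream of the canonical TSS. Its −log10 p was 92.0 (replicate 1) and 125 (replicate 2), its fold enrichment was 10.8 and 22.96, and it ranked 787 of all 5169 sites. It exceeded every other site at these genes in −log10 p in both replicates. The nearest canonical TSS was that of GPR19, 40.2 kb away.

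The other CDKN1B sites were downstream and weaker. The site at chr12:13027000-13027999, 157 kb downstream and 17.0 kb from the TSS of GPRC5A, had a −log10 p of 41.3 (replicate 1) and 27.5 (replicate 2), and its TGACAG lay 1 bp from the summit. The site at chr12:12937757-12938889, 68.2 kb downstream, had 15.0 and 17.7 and lay 0.138 kb from the TSS of APOLD1. At the strongest site the nearest TGACAG was 102 bp from the summit, and the printed bases hold TGATTGAT, a sequence searched only after it was seen here. TGATTGAT was found in 2 of the 18 windows of 500 bp and in 3.08% of all sites.

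CDKN1A, the Cip/Kip inhibitor best known for arrest after DNA damage, spans chr6:36644237-36655114 on the plus strand (ENSG00000124762) and had a single site. It lay at chr6:36547052-36548007, 98.9 kb upstream of the canonical TSS and 14.6 kb from that of SRSF3, with a −log10 p of 42.8 (replicate 1) and 27.2 (replicate 2). The fold enrichment was 8.01 and 8.49, and by −log10 p the peak ranked 2094 in replicate 1 and 4024 in replicate 2. CDKN1C, an imprinted Cip/Kip inhibitor at chr11:2904443-2907005 on the minus strand (ENSG00000129757), also had a single site, at chr11:2880546-2881229 and 26.2 kb downstream of its TSS.

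The CDKN1C site had a −log10 p of 33.0 (replicate 1) and 16.8 (replicate 2), and lay in intron 1 of KCNQ1-AS1, a non-coding gene of the imprinted domain. Its summit fell 2 bp from the TGACAG of the joined PBX and MEIS sequence printed above. The nearest canonical TSS was that of CDKN1C itself, whereas at CDKN1A it was that of a neighbour.

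CDKN2A, an INK4 inhibitor that is often lost in tumours, spans chr9:21967751-21995300 on the minus strand (ENSG00000147889) and was without a reproducible site. Each replicate called 5 peaks in its window, of which 2 were shared, and none lay in the gene body. The strongest replicate 1 peak, at chr9:22009050-22009952, had a −log10 p of 8.96 and a fold enrichment of 3.22, and was 165 bp from the canonical TSS of CDKN2B, the neighbouring INK4 gene. Replicate 2 called a weaker peak there, with a −log10 p of 2.25. The strongest replicate 2 peak, at chr9:21848002-21848456, had a −log10 p of 4.41 and no replicate 1 partner. These values stood below those of the weakest site at the other 9 genes, which was 13.2. Because the depth is unknown, weaker binding at CDKN2A is not shown to be absent.

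MYC, a transcription factor that drives growth and proliferation, spans chr8:128747680-128755197 on the plus strand (ENSG00000136997) in a window with no other protein-coding gene. Its single site, at chr8:128928298-128929539, was 180 kb downstream in intron 3 of the non-coding gene PVT1, 2 bp from the start of a PVT1 transcript. The −log10 p was 21.6 (replicate 1) and 15.4 (replicate 2). Another 9 peaks of replicate 1 overlapped replicate 2 peaks without entering the reproducible list, and the strongest of these in replicate 2, at chr8:128889989-128890741 in intron 2 of PVT1, had a −log10 p of 12.5 and 22.0. In replicate 2 this peak was the strongest of the window, above the reproducible site.

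MYCN, the MYC family member active in neural progenitors, spans chr2:16080672-16087129 on the plus strand (ENSG00000134323), also with no other protein-coding gene in its window, and had 2 sites downstream. The site at chr2:16097585-16099305, 18 kb from the TSS, had a −log10 p of 19.6 (replicate 1) and 20.4 (replicate 2). The site at chr2:16125900-16127287, 45.6 kb from the TSS, had 18.5 and 25.2. These sites were within the replicate spread of each other, and each had TGACAG within 3 bp of its summit. The strongest replicate 1 peak of the window, at chr2:16209842-16210629 in intron 3 of the non-coding gene GACAT3, had a −log10 p of 25.2 (replicate 1) and 13.4 (replicate 2) and was not in the list.

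**Figure D2:**
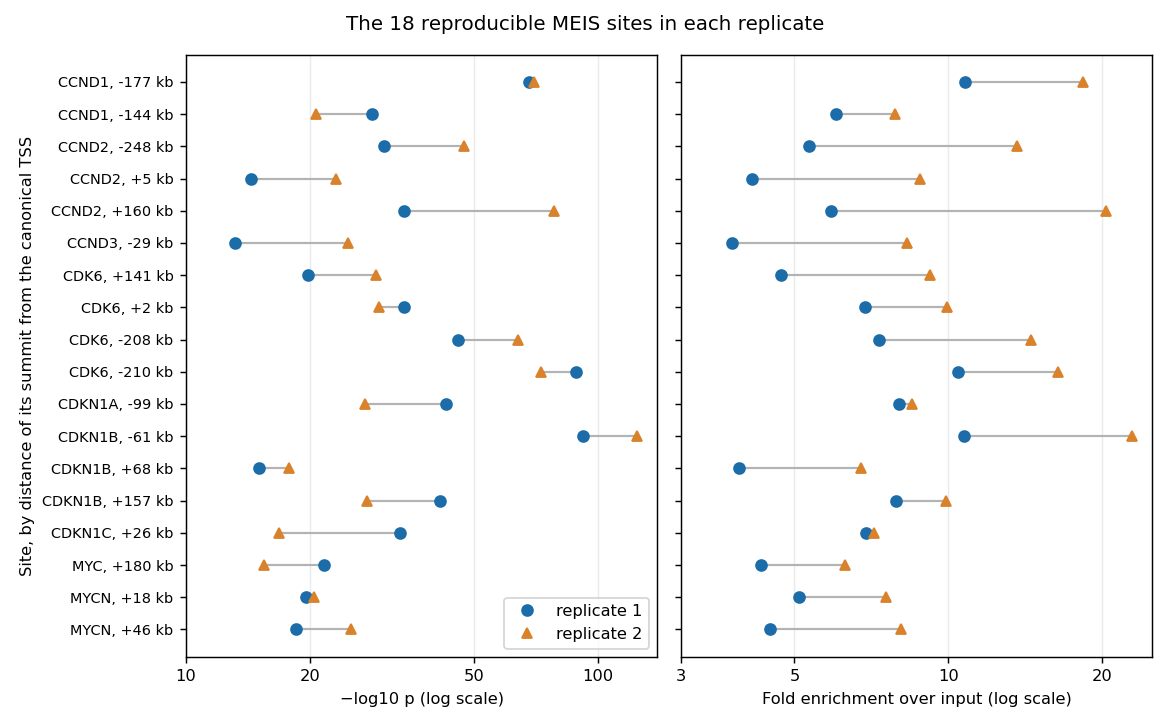
Strength of the 18 reproducible sites in each replicate, as −log10 p (left) and fold enrichment over input (right), both on logarithmic axes. Each row is a site named by its gene and the distance of its summit from the canonical start site, circles are replicate 1, triangles replicate 2, and the line joins the replicates. The fold enrichment is higher in replicate 2 at all 18 sites, while −log10 p is higher in replicate 1 at 7 and in replicate 2 at 11.

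Ordered by their strongest site, CDKN1B came first in both replicates, at 92.0 (replicate 1) and 125 (replicate 2), but only narrowly in replicate 1. Behind CDKN1B, CDK6 (88.4 (replicate 1) and 72.7 (replicate 2)) and CCND1 (67.9 and 69.9) could not be set apart from CCND2, whose values of 33.9 and 78.4 overlapped both. CDKN1A, at 42.8 and 27.2, overlapped CCND2. It stood above MYC, MYCN and CCND3 in both replicates, but only narrowly in replicate 2, where MYCN reached 25.2. The strongest sites of MYC, MYCN and CCND3 had −log10 p between 13.2 and 25.2 in either replicate and could not be ordered among themselves. The range of CDKN1C, from 16.8 to 33.0, overlapped theirs and that of CDKN1A. For each site the higher of its replicate values was a median of 1.40 times the lower and at most 2.32 times, at CCND2. With a single pair of replicates and no counts, the order rests on these values alone.

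The difference in fold enrichment between replicates was not particular to these genes, since replicate 2 gave the higher fold at 97.4% of all sites. The fold enrichment at the 18 sites ran between 3.76 and 10.8 for replicate 1, and between 6.29 and 22.96 for replicate 2. The summits of the replicates lay a median of 15.5 bp apart, and at 15 of the 18 sites they were within 50 bp.

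As a group the sites were of moderate strength. Their median −log10 p was 23.9 against 29.3 for all sites, 6 of the 18 were above the median of all sites, and none was among the strongest 516. An IDR of 0.001 or less was reached by 9 of the 18 (50%), against 60.4% of all sites. The median fold enrichment was 5.97 (replicate 1) and 9.01 (replicate 2), against 6.38 and 11.5 for all sites. The ratio of the median −log10 p to that of all sites was 0.935 with replicate 1 values and 0.687 with replicate 2 values, so its size differed between the replicates.

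Most sites were distal. Of the 18, 8 lay upstream and 10 downstream of the canonical TSS of their gene, 12 lay more than 50 kb from it and 9 more than 100 kb. For 9 of the 18 the named gene had the nearest canonical TSS, and for the others that was a neighbour. Only CCND2 (exon 3) and CDK6 (introns 1 and 4) held sites within their canonical transcripts, 3 in all, and the remaining 15 lay in no canonical transcript of a protein-coding gene. Measured to any protein-coding gene, 16 of the 18 (88.9%) were more than 5 kb from a canonical TSS, against 91.6% of all sites, and the median distance was 34.4 kb against 100.5 kb. The rule admits no site far from all protein-coding genes, which shortens this distance. Over the 4384 sites that the same rule gave to any protein-coding gene, the median was 76.4 kb, and 90.1% were more than 5 kb from a canonical TSS.

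Peaks at the start sites were counted for each replicate and for both together. Within 1 kb of the canonical TSS, replicate 1 had a peak at CCND1, CDKN1B and MYCN, against 17.2% of protein-coding genes, and replicate 2 had one at CDKN1A, CDKN1B and MYCN, against 15.0%. CDKN1B and MYCN had one in both replicates, against 9.11% of protein-coding genes. At CDKN1B the summit was 5 bp upstream of the TSS in replicate 1, with a −log10 p of 9.99, and 24 bp downstream in replicate 2, with 15.8. At MYCN it was 150 bp upstream with 11.9 and 120 bp upstream with 10.9. These start site peaks overlapped between the replicates, yet neither was in the reproducible list. The replicate 2 peak of CDKN1A, 888 bp upstream of its TSS, had a −log10 p of 4.52 and no replicate 1 partner. The replicate 1 peak of CCND1 had a −log10 p of only 2.62 and no replicate 2 partner.

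TGACAG was found within the 500 bp around the summit of 14 of the 18 sites (77.8%, Wilson 95% interval 54.8 to 91.0), searched on both strands, against 58.3% of all sites, which lies inside that interval. It was centred within 50 bp of the summit at 10 sites (55.6%), against 39.5% of all sites. The joined PBX and MEIS sequence, which contains TGACAG, was found at 2 sites (11.1%, 3.10 to 32.8), against 4.93%. The sites without TGACAG were the strongest CCND1 site, the most distant CCND2 site, and the CDK6 sites in intron 1 and 208 kb upstream, each of which was stronger than the median of the 18. At the CDK6 intron 1 site the window around the listed summit covered the summit of neither replicate.

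Short sequences of other factors were searched in the same windows. GGAATG, bound by TEAD factors, was found at 7 sites (38.9%) against 38.2% of all sites. ACAAAG, bound by SOX factors, was found at 7 sites (38.9%, 20.3 to 61.4) against 52.6%. TAATT, a homeodomain core, was found at 8 sites (44.4%, 24.6 to 66.3) against 70.2% of all sites, which lies above that interval. In 200 bp windows it was found at 3 sites (16.7%, 5.84 to 39.2) against 33.8% of all sites, which lies inside the interval. The share was thus below that of all sites in either window, but outside the interval only in the 500 bp window. The sites at these genes were also richer in G and C, with a median GC content of 47.3% against 42.0% for all sites and 15 of 18 above that median. As for strength and the other motifs, all sites here include those that the rule gave to no protein-coding gene. The part of GC content in the TAATT share was not tested.

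**Figure D3:**
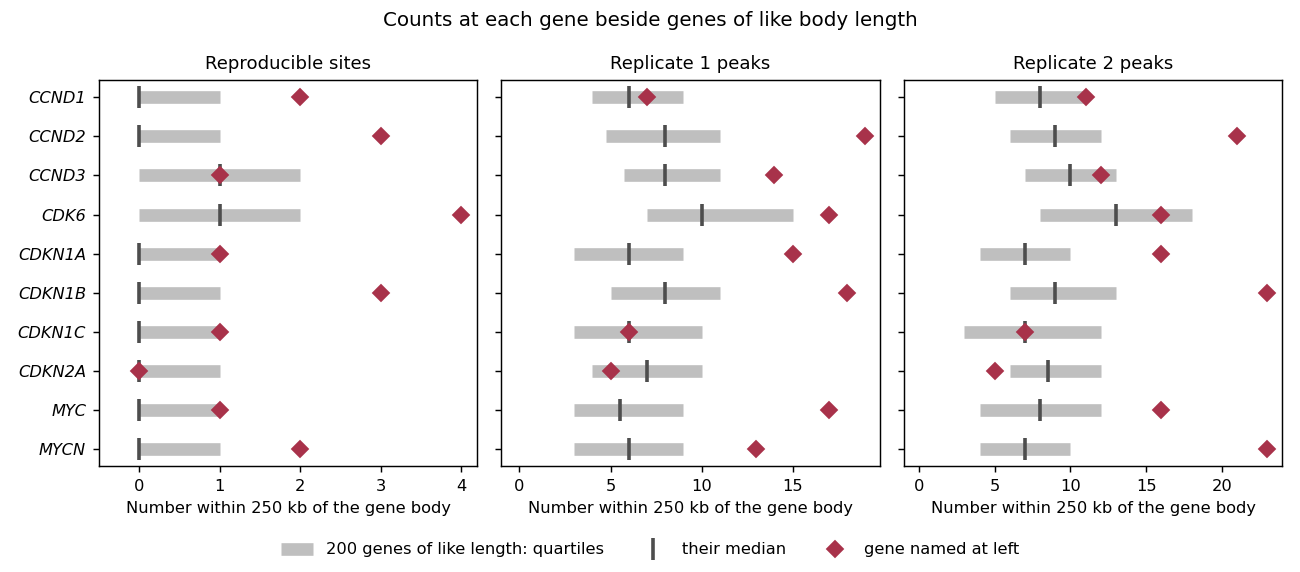
Number of reproducible sites, replicate 1 peaks and replicate 2 peaks within 250 kb of the body of each gene (diamonds), beside those of the 200 protein-coding genes closest in body length (grey bar from the lower to the upper quartile, tick at the median). CCND2, CDKN1B and MYCN lie beyond the upper quartile in all 3 panels, and CDKN2A lies at or below the median in each.

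Longer genes have longer windows, so each count was set beside the 200 protein-coding genes closest to it in length. For reproducible sites, 8.0% of like genes had as many as CCND2 or more, 8.0% as many as CDK6, 8.0% as many as CDKN1B, 9.0% as many as MYCN and 14.5% as many as CCND1. CDKN1A, CDKN1C and MYC, with 1 site each, were matched or exceeded by 39.5%, 42.0% and 39.0% of like genes, and CCND3 by 54.5%. The median like gene had no site for each gene other than CCND3 and CDK6, for which it had 1. CDKN2A was not unusual in having none, which 60.5% of genes of its length shared.

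Peaks of single replicates gave a similar picture for some genes and not for others. CCND2 had 19 peaks in replicate 1 and 21 in replicate 2, equalled or exceeded by 2.5% and 2.0% of like genes, and CDKN1B had 18 and 23, equalled by 3.5% and 2.5%. MYC had 17 and 16, equalled by 3.5% and 9.5%, and CDKN1A had 15 and 16, equalled by 6.5% and 7.0%, although each had 1 reproducible site. MYCN had 13 peaks in replicate 1 and 23 in replicate 2, equalled by 10% and 1.0%. CDK6 (17 and 16 peaks), CCND3 (14 and 12), CCND1 (7 and 11) and CDKN1C (6 and 7) were each matched by at least 14.0% of like genes in both replicates, and the 5 and 5 peaks of CDKN2A by 72.0% and 82.0%. Peak numbers and site numbers therefore did not rank the genes alike.

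Over all 10 windows, 72 of the 131 replicate 1 peaks (55.0%, Wilson 95% interval 46.4 to 63.2) shared 1 bp or more with a peak of replicate 2, against 49.0% of all replicate 1 peaks. Of the 150 replicate 2 peaks, 73 (48.7%, 40.8 to 56.6) overlapped a replicate 1 peak, against 38.0% of all, which lies below that interval. All peaks were counted here, whether or not the rule gave them to a protein-coding gene. The peaks were of ordinary strength, with a median −log10 p of 5.26 (replicate 1) and 4.48 (replicate 2) against 4.78 and 4.68 for all peaks. A q-value of 0.05 or less was reached by 65.6% and 62.7%, against 62.7% and 64.7% of all. The share that entered the reproducible list was 13.7% in replicate 1 and 12.7% in replicate 2, against 14.1% and 10.9%.

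The wider pathway was covered with 30 other genes of the G1/S transition and the MYC network. A reproducible site lay in the window of 16 of them (53.3%), close to the 47.7% of all protein-coding genes, and 4 had 2 or more (13.3%), below the 20.9% of all. Their mean was 0.7 sites per gene, against 1.80 for the 10 genes and 0.846 for all protein-coding genes. MYCL, the third MYC gene, had 3 sites, the strongest at chr1:40470262-40471154 with a −log10 p of 60.1, which lay 103 kb from its TSS and nearest to CAP1.

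CDK4 and CDK2, the kinases that act beside CDK6 in G1, had 2 sites each, with strongest values of 27.2 and 25.2. These strongest sites lay 58.5 kb and 237 kb from the TSS of CDK4 and CDK2 and were nearest to OS9 and CD63. E2F6, a repressor of the E2F family, had 2 sites with a strongest value of 48.9, nearest to E2F6 itself. Among those without a site were CDKN2B and CDKN2C, which like CDKN2A encode INK4 inhibitors, CCNE1 and E2F1, whereas the fourth INK4 gene, CDKN2D, had 1. The windows of CDKN2A and its neighbour CDKN2B largely overlap, so these counts are not separate. The retinoblastoma gene RB1 had 1 site, with a −log10 p of 56.9. It lay in the annotated gene body but in no canonical transcript of a protein-coding gene, RB1 included. The TSS of RB1 was 239 kb away, and the nearest canonical TSS was that of RCBTB2. A strong site in the SKP2 window, with a −log10 p of 1248, was nearest to another gene, RANBP3L, and outranked every site at the 10 genes.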

How the data were processed

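MEIS binding was measured by ChIP-seq in hNSC, with samples grouped by their titles. The authors trimmed paired reads of 36 bp with cutadapt 1.16, mapped them to GRCh37 with Bowtie2 2.3.0, dropped alignments with a mapping quality under 30 (SAMtools 1.2) and took out duplicates (Picard 2.15.0). The quality filter removes reads from repeated sequence. The authors called peaks in each replicate against input with MACS2 (version not given in the sources used here) at a p-value of 0.01 and ran IDR 2.0.3 on both lists.

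For each peak the deposited lists hold a fold enrichment over input (a ratio on a linear scale), a −log10 p and a −log10 q. For each reproducible site the deposited list holds the IDR, its scaled score and a −log10 p. The latter was the lower replicate value at 17 of the 18 sites described. Its 8 columns of per-replicate values were not used; the strongest overlapping peak of each replicate was taken instead.

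Summits were assigned to GENCODE 44 gene bodies extended by 250 kb, so a site may belong to several genes. The canonical TSS nearest a summit was sought among protein-coding genes. All sites in the windows of the 10 genes were named, with the peaks nearest each TSS, and pathway genes by their number of sites. The genes and lists were chosen with earlier results of these data known, so counts and medians are given beside their background without a test. Motif letters were sought on either strand of the 500 bp around each listed summit, which at the sites described lay between or at the replicate summits. Wilson 95% intervals cover the number of sites or peaks only, counted as if independent, and not the variation between replicates. Alternatives changed the window, thresholds, overlap, replicates and length matching. Scripts ran in Python 3.11.15 with numpy 2.4.6, pandas 2.3.3 and scipy 1.17.1, and were tested on simulated data.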

Additional observations from a re-analysis of the deposited data

How the results depend on the processing

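The number of sites at the 10 genes followed the window and the threshold. It was 4 within the gene bodies alone, 10 within 100 kb, 28 within 500 kb and 9 with the IDR held to 0.001, instead of 18, and the genes with a site numbered 3 in the gene bodies alone and 5 at that IDR, instead of 9. Replicate 1 peaks numbered 23 in the gene bodies alone, 71 within 100 kb, 214 within 500 kb and 71 at a −log10 p of at least 5, instead of 131. Replicate 2 peaks numbered 25, 77, 265 and 65, instead of 150. With a reciprocal overlap of 50% the shared share fell to 39.7% in replicate 1 and 34.7% in replicate 2, and with peaks restricted to −log10 p values of 5 or more it rose to 64.8% and 72.3%. The shares of all peaks under these settings were not computed, so the comparison with all peaks was not repeated. As many of the strongest peaks of a single replicate gave 16 sites at 8 genes without replicate 1 and 19 sites at 9 genes without replicate 2. Without replicate 1, CCND1 and MYCN had 1 site each instead of 2, and CDKN1C had 0 instead of 1. In that setting CDK6 had 6 instead of 4 and CDKN1B 2 instead of 3. Without replicate 2, CCND2 had 4 instead of 3, MYCN 3 instead of 2 and CDKN1B 2 instead of 3. With the IDR held to 0.001, CCND3, CDKN1C, MYC and MYCN kept no site. Assigning each site to its nearest canonical TSS gave 13 sites at 7 genes and changed their order: MYCN rose from 2 to 5 and MYC from 1 to 2, while CDKN1B fell from 3 to 0, CDK6 from 4 to 1, CCND2 from 3 to 1 and CDKN1A from 1 to 0. The share of sites with TGACAG ran from 55.6% to 78.9% over its alternatives. In 200 bp windows it was 55.6%, against 46.4% of all sites. Windows centred on replicate 1 summits and on replicate 2 summits, chosen after seeing the data, each gave TGACAG at 14 of the 18 sites. Matching on length within 10% moved the share of like genes with as many sites as MYCN from 9.0% to 14.0%. No paired analysis was possible because no groups were compared, Input having entered only through peak calling. CDKN2A had no site under any alternative. Without read counts, the limit that depth sets on the weaker peaks is unknown.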
